A study of Mus musculus with 12 samples.

Results

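Integrins are receptors that hold cells to the extracellular matrix, and each receptor pairs an alpha with a beta subunit. The mRNAs of 10 subunits known from epithelia were looked up by gene symbol among the 14244 genes of the table: *Itga1*, *Itga2*, *Itga3*, *Itga6*, *Itgav*, *Itgb1*, *Itgb4*, *Itgb5*, *Itgb6* and *Itgb8*. Of these, 9 were found, and *Itgb8* is not analysed here. The list was drawn up around *Itga2*, which was selected on its rank in the comparison of genotypes made with these same libraries, so the genotype difference of *Itga2* is described below without a test. The other subunits entered as members of the family.

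In the gut, the alpha subunit sets which matrix protein is bound. The products of *Itga1* and *Itga2* bind collagens, those of *Itga3* and *Itga6* bind laminins, and that of *Itgav* binds ligands with an RGD motif, such as fibronectin and vitronectin. ITGB1 is the common partner of the collagen and laminin receptors, ITGB4 pairs with ITGA6 in hemidesmosomes, the anchors of the cell base, and ITGB5 and ITGB6 pair with ITGAV. Integrin beta 6 with alpha V can release active TGF-beta from its latent complex. Dividing cells of the gut lie in the crypts, and laminin and collagen IV are the main proteins of the basement membrane beneath them.

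The libraries came from unsorted gut epithelial cells of male C57BL/6 littermates, 8 weeks old, of which 5 were wild type (WT) and 7 were heterozygous for the *Chd8L* deletion (*Chd8L*+/-). The deletion removes a run of internal exons of *Chd8* from a single allele in the germline, so it is present in every cell of these mice and not only in the epithelium. Cells were shaken off intestinal sections after EDTA and DTT, each mouse gave its own library, and the labels name the tissue as gut without a segment. The question of the comparison was how the deletion changed transcription in these cells.

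Each library held 15691662 to 20761315 counted reads, and values are normalized counts, that is, reads divided by a size factor of the library. All 8 epithelial markers were above 0 in every library. Their sums were 167480 to 296769 in WT, with a median of 263865, and 161862 to 289413 in *Chd8L*+/-, with a median of 194263. Only 1 *Chd8L*+/- library exceeded the WT median of this sum. The log2 difference was below 0 for 6 of the 8 markers and above 0 for 2, and the limma test called 0 of them. The targeted gene, *Chd8*, had 823 to 1050.2 normalized counts in WT and 1084 to 1483 in *Chd8L*+/- (log2 difference 0.44, limma adjusted p = 0.121). The count covers the whole gene, and the deleted exons are therefore not checked by it. WT replicate 2 stood apart from the other WT libraries. On the first principal component, which held 39.7% of the variance, it scored 41.0 against -67.5 to -26.2 for the other 4 WT libraries and 0.26 to 42.7 for *Chd8L*+/-. Where they were also computed without it, results that rest on it are given both ways.

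*Itga2* and *Itga1* are neighbours on the minus strand of chromosome 13 (GRCm38, the build that mm10 names). *Itga2* spans chr13:114833081-114932100 and no annotated gene overlaps it, whereas *Itga1*, at chr13:114953096-115101964, holds *Pelo* within it on the same strand and is also overlapped by *Gm49395* and the antisense gene *Gm10734*. Promoters were taken from RefSeq on GRCm38.p6, from 250 bases before to 50 bases after the start, and 8 of the 10 subunits matched an entry. The values of *Itgb5* varied with the epithelial marker sum and with other marker sums. The first 270 bases are shown for the collagen receptor pair, whose genes lie side by side, and for *Itgb5*. They lie at chr13:114932081-114932350 on the minus strand (*Itga2*), chr13:115101945-115102214 on the minus strand (*Itga1*) and chr16:33829415-33829684 on the plus strand (*Itgb5*). Each is printed 5′ to 3′ in the direction of the gene, and capitals mark a GC box (GGGCGG) or a TCF/LEF core (CTTTGA) on either strand:
Itga2: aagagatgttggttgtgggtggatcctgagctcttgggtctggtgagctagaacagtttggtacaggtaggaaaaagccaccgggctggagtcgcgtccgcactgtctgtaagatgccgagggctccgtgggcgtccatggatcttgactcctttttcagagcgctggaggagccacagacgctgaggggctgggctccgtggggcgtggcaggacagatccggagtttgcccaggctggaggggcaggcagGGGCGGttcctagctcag
Itga1: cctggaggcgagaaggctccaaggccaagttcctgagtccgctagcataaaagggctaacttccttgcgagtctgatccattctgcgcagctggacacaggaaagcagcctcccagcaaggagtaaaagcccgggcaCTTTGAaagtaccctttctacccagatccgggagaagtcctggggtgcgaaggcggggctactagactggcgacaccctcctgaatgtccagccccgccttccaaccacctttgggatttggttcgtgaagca
Itgb5: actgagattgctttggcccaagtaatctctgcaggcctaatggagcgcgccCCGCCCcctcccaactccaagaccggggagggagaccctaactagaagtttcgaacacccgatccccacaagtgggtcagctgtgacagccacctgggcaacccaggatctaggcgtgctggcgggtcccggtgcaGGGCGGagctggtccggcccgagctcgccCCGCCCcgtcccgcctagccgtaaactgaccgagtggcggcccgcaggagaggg

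The GC box is the motif bound by Sp1 family factors. The *Itga2* window held 1 GC box, 2 bases past the start, the *Itgb5* window held 3, and the *Itga1* window held none. A GC box was present in 5 of the 8 subunit promoters and in 35.9% of the 27025 mouse promoters of the same length. The TCF/LEF core, the motif of the Wnt pathway factors, was found in the *Itga1* window alone among the 8, 113 bases before the start, and in 16.2% of all promoters. AP-1 (TGANTCA) and TATA box (TATAAA) letters, searched on both strands like the others, were in none of the 8 and in 7.92% and 14.2% of all promoters. GC content was 59.3% for *Itga2*, 56.7% for *Itga1* and 65.7% for *Itgb5*, against a median of 52.7%. The searched motifs did not overlap each other in these windows. These are matches of letters and not binding sites.

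*Itga2*, the alpha subunit of the main epithelial collagen receptor, had 92.4, 191, 82.7, 85.3 and 91.5 normalized counts in WT replicates 1 to 5. In *Chd8L*+/- the values were 281, 223, 277, 231, 238, 151 and 229 for replicates 1 to 7. All 7 *Chd8L*+/- libraries lay above the WT median and 6 of 7 above the highest WT library, which was replicate 2, while the other 4 WT libraries stayed below every *Chd8L*+/- library. The means were 109 ± 46.1 (SD, n = 5) and 233 ± 43.0 (SD, n = 7), a ratio of 2.15, and the log2 difference was 1.15 with a standard error of 0.22. Without WT replicate 2 the log2 difference was 1.37. These values rested on 73 to 325 reads per library.

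The library names open with a letter, A to D, whose meaning the labels do not give. *Itga2* was higher in *Chd8L*+/- than in WT under each letter that held both genotypes, by 0.93 on the log2 scale for A, 1.42 for B and 1.34 for C, and within each of these letters the lowest *Chd8L*+/- library exceeded the highest WT library. This describes the same libraries that selected *Itga2* and is not a test. Letter D held 1 *Chd8L*+/- library and no WT library. For *Itga1* the same differences were -0.25, 1.15 and 0.77, so letter A went the other way.

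*Itga1*, the other collagen-binding alpha subunit, had 172, 240.5, 107, 57.5 and 138 normalized counts in WT replicates 1 to 5. The *Chd8L*+/- values ranged from 169.9 through a median of 187 to 301. All 7 *Chd8L*+/- libraries exceeded the WT median, but WT replicates 1 and 2 lay inside their range, so the groups overlapped. The means were 143 ± 68.8 (SD, n = 5) and 198 ± 46.4 (SD, n = 7), and the log2 difference of 0.59 (95% interval -0.02 to 1.20) did not pass the test (limma adjusted p = 0.215; two-sided exact permutation test over libraries, p = 0.0884). Without WT replicate 2 it was 0.82 (95% interval 0.26 to 1.38) and passed (limma adjusted p = 0.0328; exact permutation p = 0.00909). In that reduced set 27.6% of all genes passed, so a call there is not particular to *Itga1*. The smallest p that the exact test allows with all 12 libraries is 0.00126.

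**Figure D1:**
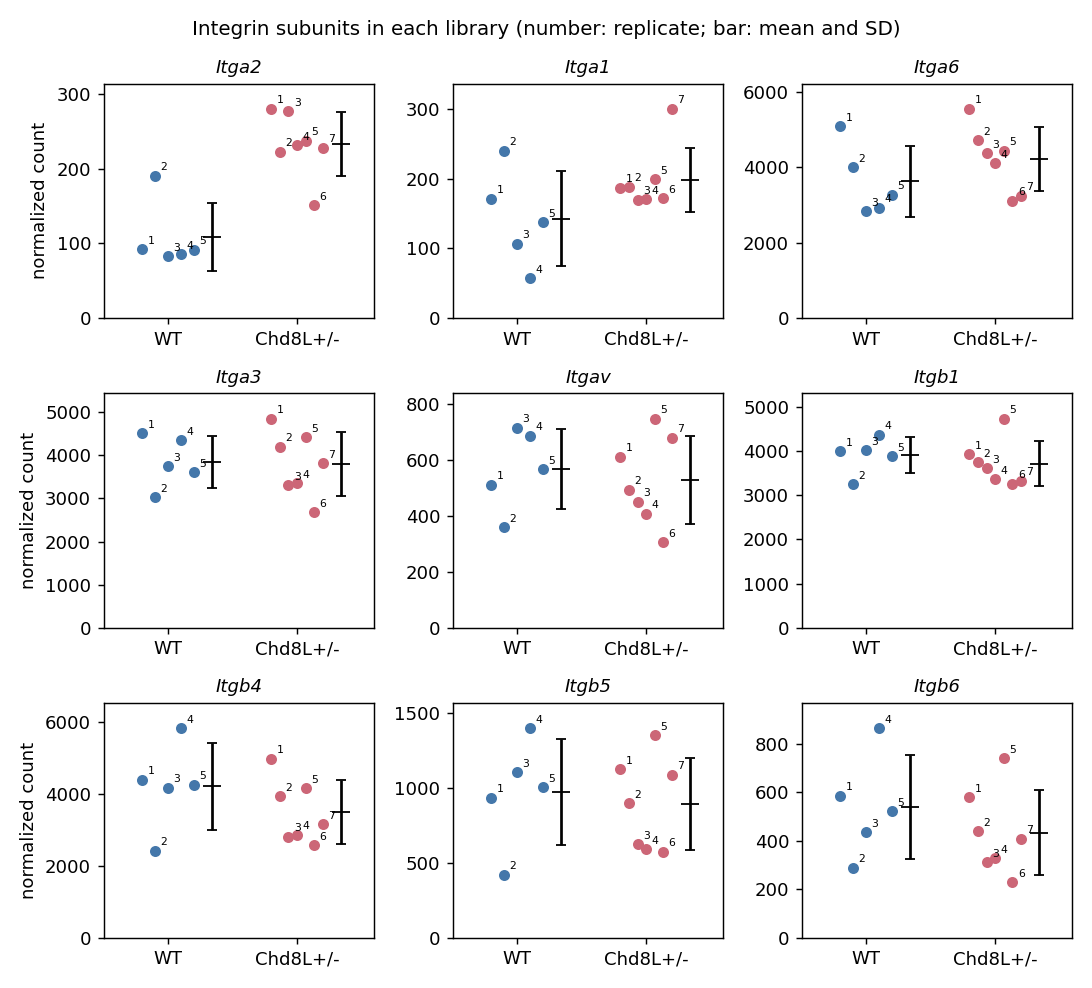
Normalized counts (y axis) of the 9 integrin subunits in each of 5 WT and 7 *Chd8L*+/- libraries; each point is a library with its replicate number, and the bar gives the mean and SD. *Itga2* is at 82.7 to 92.4 in 4 WT libraries, 191 in WT replicate 2 and 151 to 281 in *Chd8L*+/-. The ranges of the genotypes overlap for all 9 subunits, for *Itga2* through WT replicate 2 alone and for *Itga1* through WT replicates 1 and 2.

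The genes beside the pair gave other values. *Mocs2*, a molybdenum cofactor gene that flanks *Itga2* on the opposite strand, had 2855 ± 618 normalized counts in WT (SD, n = 5) and 2286 ± 616 in *Chd8L*+/- (SD, n = 7), a log2 difference of -0.33 (limma adjusted p = 0.267). *Pelo*, a ribosome rescue factor gene inside *Itga1*, had 302 ± 27.1 and 291 ± 54.1, a log2 difference of -0.07 (limma adjusted p = 0.789). Use of strand in the counting is not given in the sources used here, so reads of *Itga1* and these overlapping genes may not be fully separated.

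The laminin-binding subunits did not pass the test. *Itga3* had 3026 to 4512 normalized counts in WT, with a median of 3749.7, and 2676 to 4854 in *Chd8L*+/-, with a median of 3823. Its log2 difference was -0.03 (95% interval -0.37 to 0.31; limma adjusted p = 0.931; exact permutation p = 0.866), and its sign changed with the scaling. *Itga6* had 2826 to 5077 in WT, with a median of 3273, and 3107 to 5547 in *Chd8L*+/-, with a median of 4371. In 5 of 7 *Chd8L*+/- libraries *Itga6* lay above the WT median, and the log2 difference was 0.23 (95% interval -0.15 to 0.62; limma adjusted p = 0.434; exact permutation p = 0.242). Neither interval reached 1, which is a doubling.

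*Itgav*, the alpha subunit of the RGD-binding receptors, had 567 ± 143 normalized counts in WT (SD, n = 5) and 528 ± 158 in *Chd8L*+/- (SD, n = 7). The log2 difference was -0.12 (95% interval -0.61 to 0.37; limma adjusted p = 0.765; exact permutation p = 0.628). Without WT replicate 2 it was -0.28 (95% interval -0.75 to 0.20, limma adjusted p = 0.369).

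Among the beta subunits, *Itgb1*, the partner of the collagen and laminin receptors, varied least. It had 3901 ± 406 normalized counts in WT (SD, n = 5) and 3708 ± 513 in *Chd8L*+/- (SD, n = 7), a log2 difference of -0.08 (95% interval -0.34 to 0.18; limma adjusted p = 0.716; exact permutation p = 0.474), whose sign turned under quantile normalization. *Itgb4*, the hemidesmosome subunit, had 4393, 2425, 4173, 5823 and 4253 in WT replicates 1 to 5, and 2580.1 to 4976 in *Chd8L*+/- with a median of 3164. WT replicate 2 was the lowest of all 12 libraries, and 6 of 7 *Chd8L*+/- libraries lay below the WT median. The log2 difference of *Itgb4* was -0.25 (95% interval -0.71 to 0.21; limma adjusted p = 0.481; exact permutation p = 0.306), and without WT replicate 2 it was -0.44 (95% interval -0.83 to -0.04; limma adjusted p = 0.0910).

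The 2 partners of *Itgav* had wide spreads. *Itgb5* had 971 ± 355 normalized counts in WT (SD, n = 5) and 892 ± 306 in *Chd8L*+/- (SD, n = 7), a log2 difference of -0.09 (95% interval -0.72 to 0.53; limma adjusted p = 0.868; exact permutation p = 0.790). For *Itgb6* the values were 540.2 ± 213 and 435 ± 175 with the same n, a log2 difference of -0.32 (95% interval -0.95 to 0.31; limma adjusted p = 0.521; exact permutation p = 0.359). WT replicate 2, at 419, was the lowest library for *Itgb5*. Without it the log2 difference was -0.37 for *Itgb5* (95% interval -0.89 to 0.15, limma adjusted p = 0.268). For *Itgb6* it was then -0.52 (95% interval -1.13 to 0.09, limma adjusted p = 0.187). Differences smaller than these intervals were not detectable here.

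By count, 0 of the 9 subunits had a limma adjusted p of 0.05 or less, where 3 of 12808 genes tested did (0.0234%). *Itga2* is in this count, and nothing is read from its part in it. At an unadjusted p of 0.05 or less, 0 of the 8 subunits other than *Itga2* were found, where 24.3% of all genes were. None of the 9 subunits had groups that did not overlap, which held for 0.515% of genes. The edgeR test also called 0 of 9 (0.039% of genes), whereas DESeq2 (6.44% of genes) and limma with the library letter as a block (3.52% of genes) each called *Itga2*, from which nothing is read because this contrast selected it. The log2 difference was above 0 for 3 subunits and below 0 for 6, with a median of -0.08, against 0.01 over all genes. In bulk libraries, fewer cells of a type cannot be told apart from less RNA per cell, for any value given here. The p-values set each genotype difference against the spread between the mice of this cohort.

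**Figure D2:**
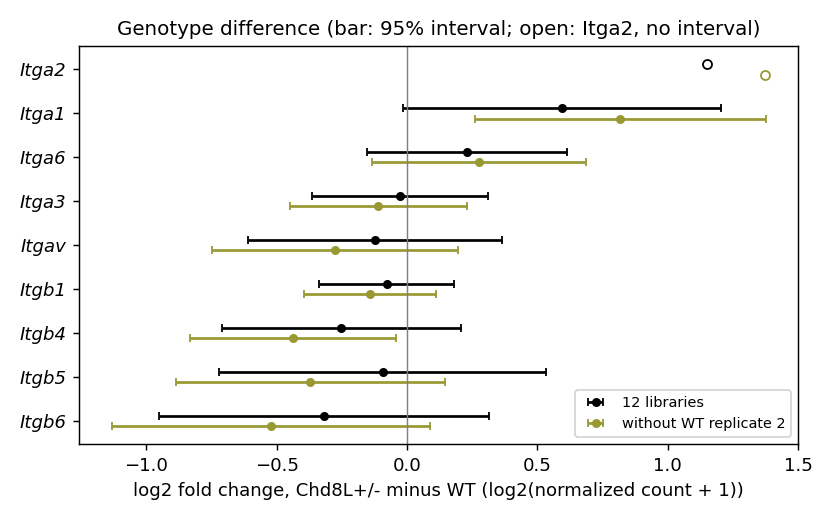
Log2 difference of *Chd8L*+/- minus WT (x axis) for each of 9 integrin subunits, with all 12 libraries (black) and without WT replicate 2 (olive); bars are 95% intervals from limma, and *Itga2* is drawn open without a bar because this contrast selected it. *Itga2* lies at 1.15 and 1.37 and *Itga1* at 0.59 and 0.82, and the other 7 lie between -0.52 and 0.28.

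To compare levels between subunits, recovered reads were divided by the length of the longest coding transcript in kilobases and by the total reads of the library, as RPKM values are. On this per-length scale, the WT medians ran from *Itgb1* (51.8) through *Itga6* (38.6), *Itga3* (37.9), *Itgb4* (34.8), *Itgb5* (15.5), *Itgb6* (5.53), *Itgav* (4.08) and *Itga2* (0.654) to *Itga1* (0.639). Within libraries, *Itgb4* exceeded *Itgb5*, *Itgb5* exceeded *Itgb6* and *Itgav* exceeded *Itga2* in 5 of 5 WT libraries, with ratios of 2.12 to 3.70 for *Itgb5* over *Itgb6*. The other neighbours in this order changed places in at least 1 WT library, so their order is within the spread. *Itgb5*, at 7.50 to 20.8, lay below all WT values of the 4 higher subunits, and *Itga2*, at 0.571 to 1.58, below all of *Itgav*, at 2.998 to 4.97. The collagen-binding subunits were thus the scarcest mRNAs of the set, with all values of both genotypes between 0.257 and 2.34.

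In *Chd8L*+/- the per-length median was 57.8 for *Itga6* and 56.7 for *Itgb1*, with overlapping ranges, 1.86 for *Itga2* and 0.992 for *Itga1*. This scale divides by total reads and not by the size factor, so genotype differences on it can depart from those above. The *Itgb1* median was higher in *Chd8L*+/- than in WT here (56.7 and 51.8) but lower in normalized counts (3611 and 3991). *Itgav* was above *Itgb6* in 1 of 7 libraries although its median was higher. In *Chd8L*+/- *Itga2*, at 1.32 to 2.34, lay above every *Itga1* value, which reached 1.27, whereas in WT the ranges of the pair overlapped. With the union of all exons as the length, the WT rank of *Itga6* moved from 2 to 4 and the ranks of *Itga2* and *Itga1* stayed at 8 and 9.

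**Figure D3:**
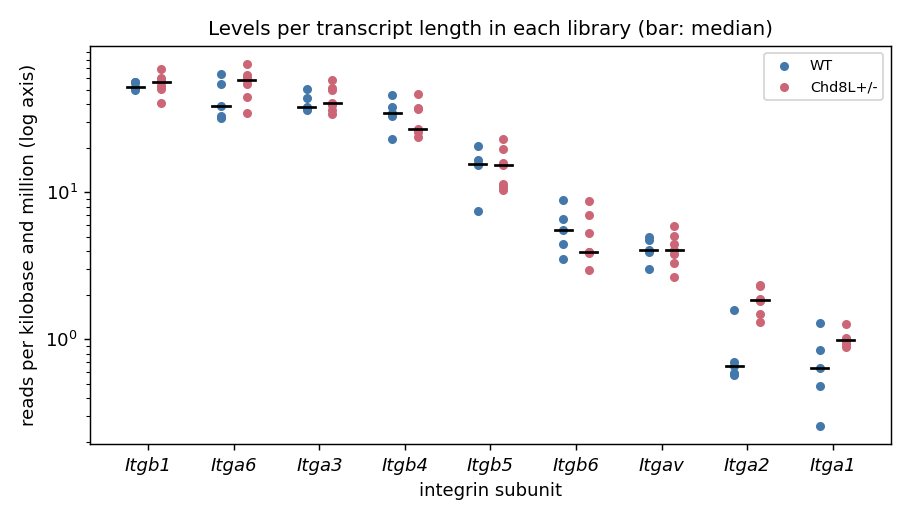
RPKM from the longest coding transcript (y axis, log scale) of each subunit in each WT and *Chd8L*+/- library, with bars at the medians. The subunits span from 51.8 (*Itgb1*) to 0.639 (*Itga1*) in WT medians. On this log axis the WT and *Chd8L*+/- medians lie furthest apart for *Itga2* (0.654 and 1.86), the subunit that the genotype contrast selected.

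Because alpha subunits share beta partners, shares of the per-length level among the 5 alpha subunits were also taken. *Itga2* made up 0.589% to 1.63% of the alpha mRNA in WT, with a median of 0.751%, and 1.51% to 2.15% in *Chd8L*+/-, with a median of 1.63%. WT replicate 2, at 1.63%, lay inside the *Chd8L*+/- range and the other 4 WT libraries, at 0.801% or less, lay below it. *Itga3* and *Itga6* together dominated, with median shares of 46.2% and 47.2% in WT and 41.1% and 53.0% in *Chd8L*+/-. *Itgav* had a median of 4.996% in WT and 3.52% in *Chd8L*+/-.

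Ratios between receptor partners were taken on the same per-length scale. *Itga2* per *Itgb1* was 0.0105 to 0.0315 in WT and 0.0249 to 0.0412 in *Chd8L*+/-, overlapping through WT replicate 2 alone. The hemidesmosome ratio, *Itga6* per *Itgb4*, had a median of 1.11 in WT (0.723 to 2.38) and 1.72 in *Chd8L*+/- (1.48 to 2.24). The ranges of this ratio overlapped through WT replicates 1 and 2. *Itgav* per *Itgb5* had medians of 0.263 and 0.258.

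Across the 12 libraries the subunits were grouped by how they varied together. The groups were read from these same correlations, so a high r within a group is in part by construction. No r among pairs of other genes is given for comparison. Among *Itga3*, *Itgav*, *Itgb1*, *Itgb4*, *Itgb5* and *Itgb6*, the 15 pairs had Pearson r of 0.75 to 0.92 on the log2 scale, and 0.74 to 0.92 after the genotype means were removed. The 6 pairs of *Itga1* with those subunits had r of -0.60 to -0.19 over 12 libraries, and the 6 pairs of *Itga2* had r of -0.44 to -0.05. *Itga1* and *Itga2* had r of 0.68 with each other and 0.54 with the genotype means removed. *Itga6* lay between the sets, with r of -0.10 to 0.44 to the 6 and 0.45 to 0.57 to the collagen-binding pair. These correlations describe 12 points that share their libraries, scaling and tissue composition, and they carry no test.

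WT replicate 2 weighed on part of this. With 11 libraries and the genotype means removed, r between *Itga1* and *Itga2* was 0.14. The pairs of *Itga2* with the 6 subunits then turned positive, at 0.33 to 0.64, and those of *Itga1* ranged from -0.24 to 0.10, so the separation of *Itga2* from the 6 within genotypes rested on WT replicate 2. The 15 pairs among the 6 subunits still had r of 0.65 to 0.92.

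**Figure D4:**
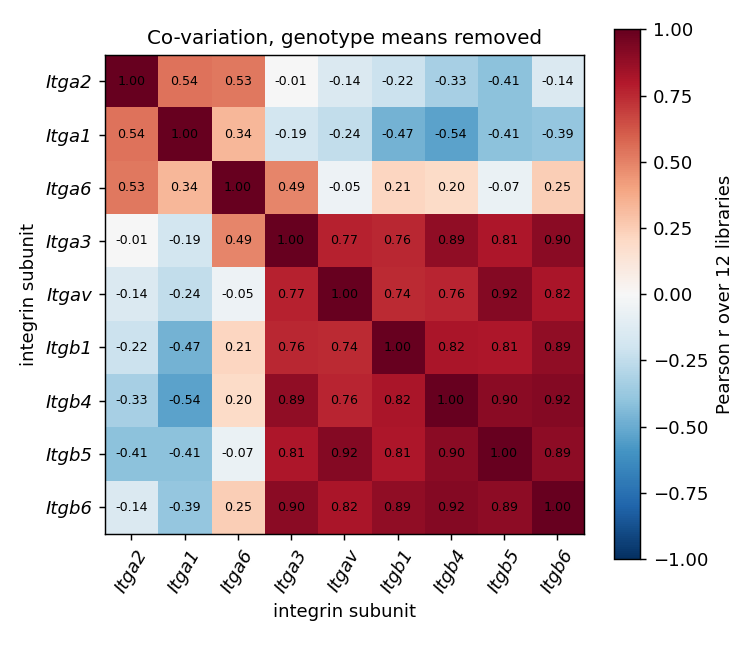
Pearson r between the log2 values of each pair of subunits (both axes) over 12 libraries after removal of the genotype means, coloured from blue (negative) to red (positive). The 6 subunits at the lower right have r of 0.74 to 0.92 with each other, and their r with *Itga1* and *Itga2* lies between -0.54 and -0.01, which for *Itga2* becomes 0.33 to 0.64 without WT replicate 2.

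The genes whose log2 values were most like those of *Itga2* over the 12 libraries were *Slc45a4* (r = 0.948), *Plekha5* (0.938), *Kdm3b* (0.938), *Ep400* (0.935) and *Fndc3b* (0.928). *Kdm3b* encodes a histone demethylase and *Ep400* a chromatin remodelling ATPase. After the genotype means were removed the closest were *Tmem260* (0.927), *Zfp638* (0.921), *Pard3b* (0.885), *Ankhd1* (0.870303) and *Ptpn4* (0.852), so no gene was on both lists. *Itga1* ranked 1412 of 12808 genes on the first measure and 1121 on the second. Neither list was made without WT replicate 2, in which *Itga2* was far above the other WT libraries.

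The libraries were described with marker lists, of which no gene found was at 0 in all libraries. The 10 proliferation markers, led by *Mki67*, summed to 3172 to 13470.0 normalized counts in WT and 7859 to 13977 in *Chd8L*+/-. All 7 *Chd8L*+/- libraries exceeded the WT median of 5428 and WT replicate 2 was the highest WT library. All 10 markers had a log2 difference above 0, where 6588 of the 12808 genes tested did, and their median was 1.01. The limma test called 0 of them, and 9 had an unadjusted p of 0.05 or less, where 0.0234% and 24.3% of all genes did. The sum had r of 0.79 with *Itga2* and 0.72 with *Itga1* over 12 libraries, 0.60 and 0.59 with the genotype means removed, and -0.03 and 0.26 when WT replicate 2 was also left out. The part of proliferating cells in the *Itga2* difference was not tested.

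The 8 crypt stem markers summed to 7044 to 18731 in WT and 11963 to 22207 in *Chd8L*+/-, with r of 0.53 to *Itga2* and 0.64 to *Itga1* over 12 libraries. These were 0.35 and 0.54 with the genotype means removed, and -0.34 and 0.27 when WT replicate 2 was also left out, so the sign turned for *Itga2*. The 10 enterocyte markers, genes of mature absorptive cells, summed to 388725 to 887356 in WT and 334722 to 720328 in *Chd8L*+/-, and no *Chd8L*+/- library reached the WT median of 800088. WT replicate 2 was the lowest WT library in enterocyte and epithelial marker sums. The part of these compositions in the genotype differences was not tested.

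The epithelial marker sum varied with members of the set of 6. Its r was 0.96 with *Itgb4*, 0.88 with *Itga3* and 0.80 with *Itgb5* over 12 libraries, 0.96, 0.91 and 0.82 with the genotype means removed, and 0.93, 0.90 and 0.70 when WT replicate 2 was also left out. For *Itga2* and *Itga1* it was -0.39 and -0.55 over 12 libraries, -0.25 and -0.48 with the genotype means removed, and 0.52 and -0.19 when WT replicate 2 was also left out, so that the sign turned for *Itga2*. Other sums varied with *Itgb5* as strongly. With the genotype means removed, the proliferation sum had r of -0.83 with *Itgb5*. When WT replicate 2 was also left out, r with *Itgb5* was 0.83 for the myeloid and 0.81 for the endothelial marker sum. The myeloid sum then had 0.86 with *Itgav*, where the epithelial sum had 0.60. For *Itgb4* and *Itga3* no other list had a larger r on these scales.

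**Figure D5:**
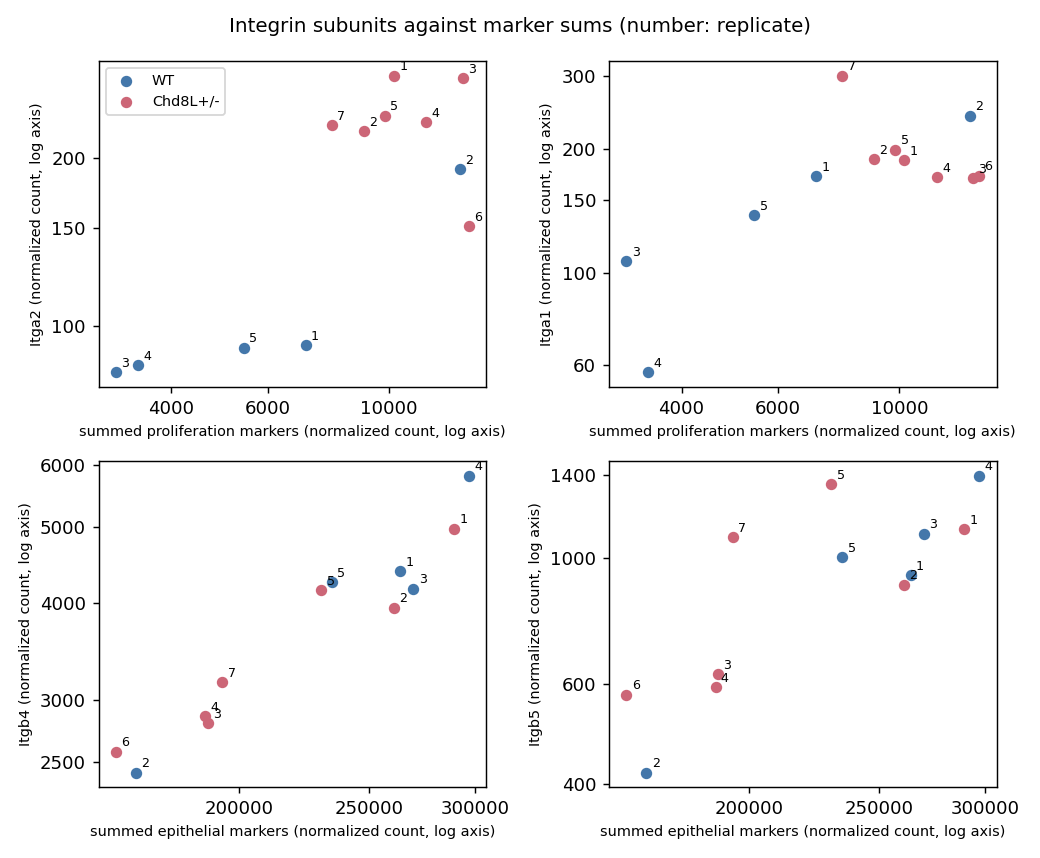
Normalized counts of *Itga2* and *Itga1* against the summed proliferation markers (top) and of *Itgb4* and *Itgb5* against the summed epithelial markers (bottom), on log axes, for each WT and *Chd8L*+/- library with its replicate number. The 4 WT libraries with the lowest *Itga2* (82.7 to 92.4) also have the lowest proliferation sums, and *Itgb4* climbs with the epithelial sum (r = 0.96) in libraries of both genotypes.

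Markers of cells other than epithelium were present at lower sums. The 9 myeloid markers, led by *Cd14*, summed to 339 to 717 in WT and 467 to 942 in *Chd8L*+/-, with all 9 log2 differences above 0 and r of 0.67 with *Itga2* (0.54 with the genotype means removed, 0.19 when WT replicate 2 was also left out). The 10 stromal markers, led by *Tagln*, summed to 124 to 501 in WT and 113 to 2681 in *Chd8L*+/-, with the highest value in replicate 5 and r of 0.62 with *Itga2* (0.52 and 0.40 in the same reductions). All 8 stromal markers tested also had a log2 difference above 0, with a median of 1.72 against 0.64 for the myeloid list. This held for 2 of 10 T lymphocyte, 0 of 5 B lymphocyte and 1 of 4 tested endothelial markers, and for 6588 of the 12808 genes tested. The 10 T lymphocyte markers summed to 4573 to 8112 in WT and 3195 to 8234 in *Chd8L*+/-, the 5 B lymphocyte markers to 476 to 1941 and 244 to 4118, and the 6 endothelial markers to 82.7 to 217 and 59.7 to 182. Only 2 of 5 platelet markers were found, with sums of 456 to 657 and 363 to 1299. The 10 tissue handling genes, led by *Fos*, summed to 8511 to 15272 in WT and 4270 to 9851 in *Chd8L*+/-. No *Chd8L*+/- library reached the WT median of those genes, 2 of the 10, the heat shock genes *Hspa1a* and *Hspa1b*, passed the limma test and were lower in *Chd8L*+/-, making up 2 of the 3 calls among 12808 genes (0.0234%), and r with *Itga2* was -0.58 over 12 libraries, -0.02 with the genotype means removed and 0.57 when WT replicate 2 was also left out. The handling sum also varied with members of the set of 6. With the genotype means removed, its r was 0.78 with *Itgb4*, 0.89 with *Itga3*, 0.69 with *Itgb5* and 0.83 with *Itgb6*. The epithelial marker sum had 0.96, 0.91, 0.82 and 0.82 there. When WT replicate 2 was also left out, the handling sum had 0.75, 0.87, 0.61 and 0.79. The part of these cells and of handling in the integrin values was not tested.

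Integrins outside the list, which mostly mark blood and mesenchymal cells, gave 16 of 17 symbols in the table and 15 tested genes. None passed the limma test, 2 were higher and 0 lower at an unadjusted p of 0.05 or less, where 12.5% of all genes were higher and 11.8% lower, and the median log2 difference was 0.21. *Itgam*, the alpha subunit of the myeloid receptor Mac-1, had 83.9 ± 43.2 normalized counts in WT (SD, n = 5) and 215 ± 115 in *Chd8L*+/- (SD, n = 7), a log2 difference of 1.35 (limma adjusted p = 0.121). *Itga5*, the fibronectin receptor alpha subunit, had 37.4 ± 24.8 and 65.8 ± 25.99, a log2 difference of 0.93 (limma adjusted p = 0.180). *Itga7*, a laminin receptor subunit of muscle, had a log2 difference of 0.57 (limma adjusted p = 0.283).

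Among the ligands, 7 of 11 laminin genes were tested and 0 passed, with 1 higher and 0 lower at an unadjusted p of 0.05 or less (24.3% of all genes in either direction) and a median log2 difference of 0.44. *Lamc1*, the common laminin gamma chain, had 68.5 ± 16.4 normalized counts in WT (SD, n = 5) and 99.0 ± 25.8 in *Chd8L*+/- (SD, n = 7), a log2 difference of 0.52 (limma adjusted p = 0.159). For *Lamb2*, a laminin beta chain, the log2 difference was 0.52 (limma adjusted p = 0.420).

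Of 17 genes for collagen IV and other ligands, 9 were tested and 0 passed, with 1 higher and 1 lower at an unadjusted p of 0.05 or less (against 24.3% of all genes) and a median log2 difference of 0.39. *Fn1*, which encodes fibronectin, had 644, 117, 2942, 2787 and 1649 normalized counts in WT replicates 1 to 5 and 38.7 to 617 in *Chd8L*+/-, with a median of 94.3. All 7 *Chd8L*+/- libraries were below the WT median, WT replicate 2 lay inside their range, and the log2 difference was -2.91 with a standard error of 0.80 (limma adjusted p = 0.121). *Hspg2*, the basement membrane proteoglycan perlecan, had 84.0 as the WT median and 381 as the *Chd8L*+/- median, and WT replicate 2, at 478, exceeded all other libraries. Its log2 difference was 1.45 with a standard error of 0.40 (limma adjusted p = 0.121). *Col4a1*, a collagen IV chain, had a log2 difference of 1.18 (limma adjusted p = 0.219) on 2 to 53 reads per library.

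In these lists of other integrins and ligands, with 15, 7 and 9 tested genes, the share under this unadjusted threshold, both directions together, was not above that of all genes. With so few genes nothing more is read from these shares.

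Inside the cell, 22 of 25 adaptors and kinases of adhesion sites were tested and 0 passed, with 4 higher and 1 lower at an unadjusted p of 0.05 or less (against 24.3% of all genes) and a median log2 difference of -0.04. *Tln2*, a talin that links integrin tails to actin, had 107 ± 72.5 normalized counts in WT (SD, n = 5) and 216 ± 65.1 in *Chd8L*+/- (SD, n = 7), a log2 difference of 1.21 (limma adjusted p = 0.124). *Itgb1bp1*, an inhibitor that binds the tail of ITGB1, had 144 ± 28.2 and 98.4 ± 20.2, a log2 difference of -0.55 (limma adjusted p = 0.128), with all 7 *Chd8L*+/- libraries below the WT median. *Tns1*, a tensin, had a log2 difference of 1.602 (limma adjusted p = 0.147), and the *Chd8L*+/- libraries spread from 9.10 to 157.

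Of the hemidesmosome and tetraspanin genes, 6 of 7 were tested and 0 passed, with 0 higher and 1 lower at an unadjusted p of 0.05 or less (against 24.3% of all genes) and a median log2 difference of -0.07. *Cd151*, the tetraspanin that binds laminin-receptor integrins, had 2497 ± 776 normalized counts in WT (SD, n = 5) and 1726 ± 214 in *Chd8L*+/- (SD, n = 7), a log2 difference of -0.47 (limma adjusted p = 0.164). No *Chd8L*+/- library reached the WT median, and WT replicate 2, at 1327, was lower than all of them. The log2 difference was -0.33 for the tetraspanin *Cd82* (limma adjusted p = 0.447) and -0.10 for *Plec*, the plakin that ties hemidesmosomes to keratin (limma adjusted p = 0.857).

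Without WT replicate 2, 11 of the 59 tested pathway genes passed, where 27.6% of all genes did. Those higher in *Chd8L*+/- were *Itgam*, *Itga5*, *Lamb2*, *Hspg2*, *Parva*, *Tln2*, *Tns1* and *Ptk2*, and those lower were *Fn1*, *Itgb1bp1* and *Cd151*. *Ptk2* encodes focal adhesion kinase and *Parva* a parvin of the same sites.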

How the data were processed

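RNA-seq of gut epithelial cells from 5 WT and 7 *Chd8L*+/- mice was used. After poly(A) selection the authors sequenced single-end reads of 75 bases and mapped them to mm10 with Tophat2. They deposited a signal for every gene in every library, which is the read count divided by the size factor of the DESeq2 pipeline (DESeq2 and mm10 are named in the submitters' processing notes). The counting program, annotation and use of strand are not given in the sources used here. All columns were matched to mice by library name, with 0 columns of other samples.

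Dividing each value by what 1 read is worth gave whole reads for 100% of values (tolerance 0.01), between 15691662 and 20761315 per library. Genotypes were compared with limma 3.58.1 (R 4.3.3; eBayes with trend) on log2(value + 1). It covered the 12808 genes whose mean was 10 or more, with Benjamini-Hochberg adjustment over all of them and a threshold of 0.05. Fold changes on this scale understate those of low genes. Two-sided exact permutation tests ran over all 792 assignments of the 12 libraries. Alternatives were pseudocounts of 0.5 and 5, no filter, quantile normalization, tests of recovered reads (edgeR 4.0.16, DESeq2 1.42.0), blocks by replicate number or library letter, and each library left out. The steps were tested on simulated data with the same dispersion for every gene, changes only in genes that were not low, and no library set apart. That does not show how the steps perform with a library such as WT replicate 2. Positions and lengths came from GENCODE M21 on GRCm38, which matched 98.5% of gene names by symbol and need not be the authors' annotation. The union of exons as length and the correlations without WT replicate 2 were added after the values were seen.

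Named genes were the subunits, the 3 tested genes of each pathway list with the smallest unadjusted p and any past the threshold, the genes most like *Itga2*, its neighbours and *Chd8*. A gene that this rule names is not reported here. The subunits and lists were chosen with earlier results of these data known. *Pelo*, *Parva*, *Ptk2*, *Hspa1a*, *Hspa1b*, the genes that overlap *Itga1* and the leading marker genes were named after their values were seen.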

Additional observations from a re-analysis of the deposited data

Results flagged for a closer look

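Of 18 groups of libraries, 9 subunits in 2 genotypes, 3 held a library far from the others, where chance gives about 1 in 20. *Itga2* was high in WT replicate 2, at 191 normalized counts against 82.7 to 92.4 in the other 4 WT libraries. *Itga2* was low in *Chd8L*+/- replicate 6, at 151 against 223 to 281 in the other 6 libraries. *Itga1* was high in *Chd8L*+/- replicate 7, at 301 against 169.9 to 199 in the other 6 libraries. *Chd8L*+/- replicate 7 was also the only library whose name opens with D, and *Chd8L*+/- replicate 6 had the highest proliferation marker sum of all 12 libraries (13977).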

How the results depend on the processing

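*Itga2* kept a log2 difference above 1 in all 20 alternatives (1.01 to 1.37), which is description only because this contrast selected it. *Itga1* ranged from 0.31 to 0.82, with limma, edgeR or DESeq2 adjusted p from 0.0328 to 0.491, passing only without WT replicate 2. Genes differing between genotypes numbered 3 with limma, 5 with edgeR, 811 with DESeq2, 451 with the library letter as a block and 0 to 3534 with a library left out, the 3534 (1789 higher, 1745 lower) being without WT replicate 2; the count was also 0 without WT replicate 1 or 5 and without *Chd8L*+/- replicates 1, 2, 3, 4, 5 or 7, 1 without WT replicate 4 and 8 without *Chd8L*+/- replicate 6. Integrin subunits past the threshold numbered 1 (*Itga2*) with DESeq2, 1 (*Itga2*) with the letter block and 0 to 2 with a library left out (*Itga1* and *Itga2* without WT replicate 2). Pathway genes numbered 3 with DESeq2 (*Fn1*, *Itgam*, *Tns1*), 4 with the letter block (*Fn1*, *Hspg2*, *Itgam*, *Tln2*) and 0 to 11 with a library left out. With the replicate number as a block, 0 genes passed. Same-numbered libraries deviated with r of -0.34 to 0.19, which cannot decide whether the mice were paired. Library names also share numbers after the letter, whose meaning the labels do not give, and these were not used as a block. The log2 difference of *Itga3* turned to 0.17 with quantile normalization, 0.000224 with edgeR, 0.0631 with the replicate block, and -0.11 to 0.0533 with a library left out. That of *Itgb1* turned to 0.12 with quantile normalization, which moved genes with a mean of at least 2000 by 0.17 at the median against -0.05 over all genes. That of *Itgb5* turned to 0.0631 without WT replicate 4 (-0.37, without WT replicate 2, to 0.0631). Other causes were not tested. Over 100 alternatives in all, list medians ran from -0.20 (hemidesmosome and tetraspanins) to 0.58 (collagen IV and other ligands), and those of the adaptors (-0.10 to 0.09) and of the hemidesmosome and tetraspanin genes (-0.20 to 0.05) crossed 0. *Itga1* and *Itga2* rest on 58 to 325 reads per library, so counting error is largest for them.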
